A study of Mus musculus with 12 samples.

Results

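Basal myoepithelial cells of the mouse mammary gland were selected from single-cell RNA counts by 7 genes. A gland cell was taken as a member when it had at least 3 UMIs over the basal keratins Krt14, Krt5 and Krt17 and at least 2 UMIs over the smooth-muscle genes Acta2, Myh11, Mylk and Tagln. A UMI, or unique molecular identifier, stands for 1 captured RNA molecule however often PCR copied it. The rule found 330 members among 3153 gland cells, in a series of 21157 cells. They were compared with 2536 other gland cells that had at least 1 UMI of Epcam, the epithelial surface marker. The remaining 287 gland cells belonged to neither group.

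The cells came from mammary glands of 2 tumor-bearing mice, named MG1 and MG2, and were measured by Drop-seq, which reads the 3′ end of polyadenylated RNA in droplets. The paper's gland protocol used the fourth pair. The gland pair, age and reproductive state of these 2 mice are not given in the sources used here. Both mice carried MMTV-Cre and Brca1 flox/flox on a mixed C57BL/6 and 129/Sv background, and their suspensions had been depleted of hematopoietic and endothelial cells. The MMTV promoter drives Cre in mammary epithelium but need not act in every epithelial cell, and 3′ counts do not show in which cells the floxed exons were removed. Both groups of cells carried this genotype and no wild-type gland was part of the comparison, so an effect of Brca1 loss and ordinary cell identity cannot be told apart here. Each mouse gave 2 libraries. A p-value here therefore measures differences against library-to-library spread within these 2 animals, and not against the spread between mice.

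Myoepithelial cells form the outer layer of mammary ducts and alveoli, between the luminal cells and the basement membrane. They contract in response to oxytocin to eject milk, build much of the basement membrane, and signal to the luminal layer through Notch ligands, Wnt regulators and growth factors. Luminal cells comprise a secretory type, which makes milk proteins, and a hormone-sensing type, which carries the receptors for estrogen, progesterone and prolactin.

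The 4 gland libraries held between 693333 and 4425910 UMIs. Library pairs shared at most 7 cell barcodes, and 0 barcodes were members in more than 1 library. In MG1, 55 of 713 cells of replicate 1 were members (7.71%, exact Clopper-Pearson 95% interval 5.86% to 9.92%). The share was 13 of 105 cells in MG1 replicate 2 (12.4%, 6.76% to 20.2%). In MG2 it was 138 of 1183 cells in replicate 1 (11.7%, 9.89% to 13.6%) and 124 of 1152 in replicate 2 (10.8%, 9.03% to 12.7%). These intervals cover counting error only and overlapped for every pair of libraries, though only just for MG1 replicate 1 against MG2 replicate 1. With 2 libraries against 2, no exact test could pass a threshold of 0.05. With every cell thinned at random to 1000 UMIs before the rule was applied, the shares were 2.81%, 2.86%, 4.65% and 4.43% in the same order.

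**Figure D1:**
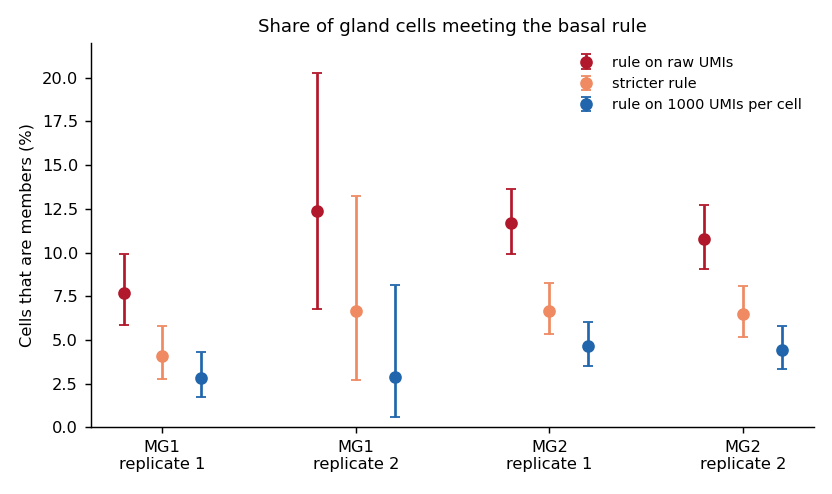
Share of cells of each gland library that met the member rule (vertical axis, percent; points for the 4 libraries with exact 95% intervals), for the rule as stated, the stricter rule (at least 5 keratin and 4 contractile UMIs) and the rule applied after thinning to 1000 UMIs. The shares ranged from 7.71% to 12.4% under the rule as stated, and from 2.81% to 4.65% after thinning.

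The 7 genes of the rule are a description of the selection and were not tested. Among members, 93.9% had a UMI of Myh11, smooth-muscle myosin heavy chain, and 92.4% had one of Krt14, against 9.98% and 7.93% of the comparison cells. Krt17 was seen in 87.0% of members, Acta2 in 74.8%, Mylk in 65.2%, Krt5 in 60.3% and Tagln in 48.5%, and in 2.84% to 7.02% of comparison cells. The median depth was nearly equal, at 2723 UMIs per member and 2718.5 per comparison cell. In the comparison cells the 7 genes together reached 341 CPM (counts per 1e6 UMIs) in MG1 replicate 1 and 86.5 to 162 CPM in the other libraries, against 4275 to 5013 CPM in members.

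Members combined the keratin and the contractile side of the rule in varying proportion. All 7 genes were detected in 58 members, 6 in 85, 5 in 90, 4 in 69, 3 in 25 and 2 in 3 members, and in 0 of the 2536 comparison cells were all 7 seen. Keratin UMIs exceeded contractile UMIs in 154 members, contractile UMIs exceeded keratin UMIs in 152, and 24 members were equal. The keratin share of these UMIs had a median of 50% and ran from 25% at the 10th percentile to 75.8% at the 90th percentile. The median was highest in MG1 replicate 2 (65.2%, 13 members) and lowest in MG1 replicate 1 (46.7%). Whether this range exceeds what sampling of few UMIs gives was not tested.

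At the threshold, 47 members had exactly 3 keratin UMIs, and 42 of these had an Epcam UMI. The 42 cells that missed the rule with 2 keratin UMIs had Epcam in 36 and nearly the same median depth (2107 against 2140 UMIs). On the contractile side, 36 members had exactly 2 UMIs, and 43 cells missed the rule with 1. A further 108 gland cells had 2 or more contractile UMIs and no keratin UMI, and 10 of these had a UMI of the pericyte list.

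The raw-UMI threshold is passed more easily by a deep barcode, and the deepest members differed from the rest. The 33 deepest members, 10% of the group, held 38.7% of all member UMIs and 77.1% of the members' UMIs of luminal secretory markers, but 18.1% of the UMIs of the 7 rule genes. In 25 of these 33 the luminal markers outnumbered the rule genes, against 51 of the other 297 members. The rule genes had a median of 13 per 10000 UMIs in the deepest members and 59.6 in the others, and the secretory markers 83.7 and 6.25. The 129 members that still met the rule at 1000 UMIs held 4.21% of the secretory-marker UMIs, and luminal markers outnumbered rule genes in 3 of them. Whether deep members were pairs of cells under 1 barcode was not tested and no doublet caller was run. Sums over all members therefore contain luminal RNA, and values for the 129 cells are given beside the main values of luminal gene groups.

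**Figure D2:**
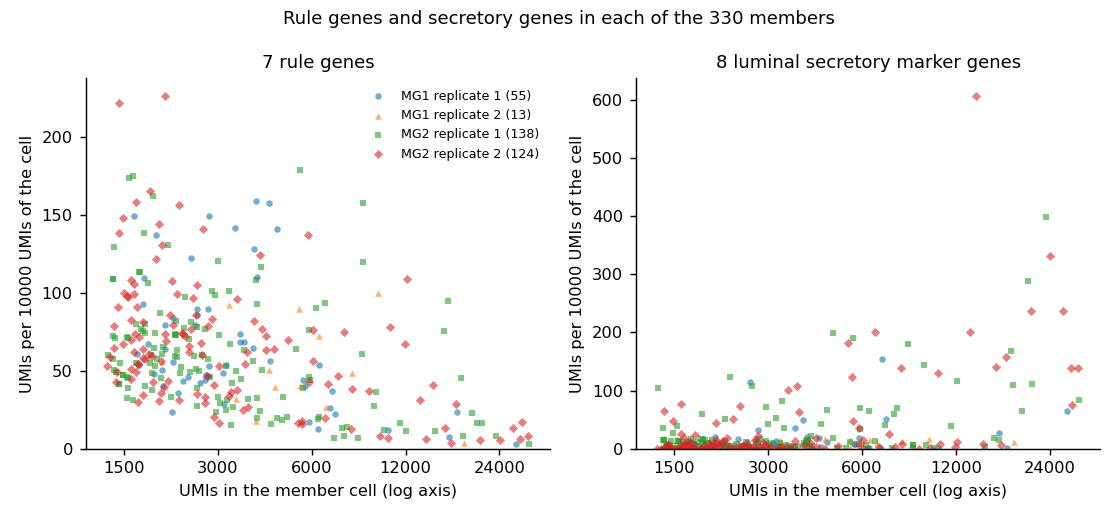
Each point is 1 of the 330 members, by its total UMIs (horizontal log axis) and its UMIs of the 7 rule genes (left) or of 8 luminal secretory markers (right) per 10000 UMIs (vertical axes). The rule genes thinned out toward the deepest members (median 13 against 59.6 in the others), where the luminal secretory markers were most abundant (83.7 against 6.25).

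Markers of other cell types were found in members at differing levels. Immune markers were found in 0.909% of members and 2.05% of comparison cells, with Ptprc at 0 in members. Pericyte markers were found in 8.79% of members and 6.31% of comparison cells, summing to between 18 and 45.9 CPM in the 4 libraries of members and 14.1 to 26.5 CPM in those of comparison cells. Rgs5, a pericyte gene of that list, was found in 5.15% of members and 0.946% of comparison cells. Notch3 of the list was found in 1.52% and 3.86% and gave 110 of the 193 list UMIs in comparison cells. Higd1b, Kcnj8 and Ndufa4l2 had 0 UMIs in members and 0, 4 and 1 in comparison cells. Endothelial markers were found in 6.36% of members and 3.39% of comparison cells. Their summed level was 4.17, 12.2, 77.5 and 98.0 CPM in the MG1 and MG2 libraries of members and 33.9, 102, 34.5 and 26.6 CPM in comparison cells. Fibroblast markers were found in 58.8% of members and 41.9% of comparison cells. Their summed level was 2254 and 2834 CPM in the MG1 members and 353 and 570 CPM in the MG2 members, against 1678, 2461, 590 and 474 CPM in comparison cells of the same libraries. Fibroblast marker RNA was thus more abundant in MG1 than in MG2 in both groups of cells. The part of these cell types in the results was not tested. With only the members that had no UMI of a stromal marker, a set chosen after seeing the data with 16, 0, 51 and 53 members in MG1 replicates 1 and 2 and MG2 replicates 1 and 2, 771 genes passed the test described below, and 81 of 108 tested genes named or listed here kept their call.

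For the main comparison, UMIs were summed per library over members and over comparison cells, giving 8 sums. Members held 239988, 81871, 632017 and 612414 UMIs in MG1 replicates 1 and 2 and MG2 replicates 1 and 2. Levels below are CPM on totals scaled by the TMM method, given in that library order, and fold changes are from edgeR's quasi-likelihood test with the library as block and Benjamini-Hochberg adjustment. Outside the genes that chose the cells, 957 of 6613 tested genes (14.5%) passed an adjusted p of 0.05, 616 higher (9.31%) and 341 lower (5.16%) in members, and the median log2 fold change of all tested genes was -0.04. The number rested on the MG2 libraries: it was 371 without MG2 replicate 1 and 561 without MG2 replicate 2. With the 129 members that met the rule at 1000 UMIs it was 561 higher and 584 lower of 4829 genes (23.7% in either direction, 11.6% higher and 12.1% lower), without the excess of higher genes. In 15.2% of all tested genes the 4 member sums and the 4 comparison sums did not overlap.

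The contractile apparatus outside the rule was the group with the most higher members. Of 16 listed genes 13 were tested, 11 were higher, 0 were lower and the median log2 fold change was 1.88. Tpm2, the beta-tropomyosin of actin filaments (chromosome 4, 43514711 to 43523765, GRCm38.p6), had 1392, 1369, 974 and 681 CPM in members. Its level in comparison cells was 120, 17.4, 35.2 and 28.1 CPM. The lowest member sum lay far above the highest comparison sum, and the log2 fold change was 4.53 (SE 0.27, adjusted p 8.93e-08). Calponin Cnn1, an actin-binding regulator of smooth-muscle contraction (chromosome 9, 22099216 to 22109630), had 386, 142, 124 and 87.2 CPM in members. In comparison cells it had 27.0, 3.88, 2.29 and 4.09 CPM, with a log2 fold change of 4.48 (SE 0.29, adjusted p 1.87e-07). Both groups were highest in MG1 replicate 1, the library with most rule-gene UMIs in comparison cells, and they did not overlap.

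Myl9, the regulatory light chain of smooth-muscle myosin (chromosome 2, 156775420 to 156781658), had 172, 64.6, 99.0 and 58.1 CPM in members and 13.7, 5.82, 3.43 and 1.46 CPM in comparison cells. Its log2 fold change was 4.32 (SE 0.33, adjusted p 7.82e-07) with no overlap. Leiomodin Lmod1, a nucleator of actin filaments in muscle, was 3.85 higher on the log2 scale (SE 0.31, adjusted p 1.3e-06). Nexilin (Nexn), an actin-binding protein of muscle outside the list, was 4.15 higher (SE 0.26, adjusted p 1.09e-07). Caldesmon (Cald1), which restrains actomyosin, was far more abundant in both groups, at 1686 ± 339 CPM (SD, n = 4 libraries) in members and 288 ± 48.5 CPM in comparison cells. It was detected in 97.3% of members and 35% of comparison cells, and after thinning to 1000 UMIs in 75.2% and 17.8%. Tpm1, the alpha-tropomyosin, was high in both groups (1151 ± 65.6 and 492 ± 113 CPM) with a log2 fold change of 1.22.

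The remaining tested genes of the list differed less. Smoothelin Smtn (log2 fold change 1.88), the Z-line protein Pdlim3 (1.89), filamin Flna (1.40), alpha-actinin Actn1 (1.12) and the myosin light chain Myl6 (0.46, adjusted p 0.0301) were higher in members. The call of Myl6 was lost without MG1 replicate 1, without either MG2 library and with sums per mouse. It was also lost in members with fewer than 2 UMIs on each luminal marker list. The 2 tested members of the list that did not pass were Csrp1 (0.59, SE 0.21, adjusted p 0.0739) and vinculin Vcl (0.24, SE 0.18, adjusted p 0.418). In the 129 members that met the rule at 1000 UMIs, 12 of 13 were higher, with Csrp1 now among them (0.97, adjusted p 0.0226). The sums of 11 of the 13 genes did not overlap, against 15.2% of all genes. Actg2, Synpo2 and Des were too sparse for the test, with 23, 35 and 2 UMIs in members and 5, 18 and 10 in comparison cells. Des encodes desmin, the intermediate filament of vascular and other smooth muscle.

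**Figure D3:**
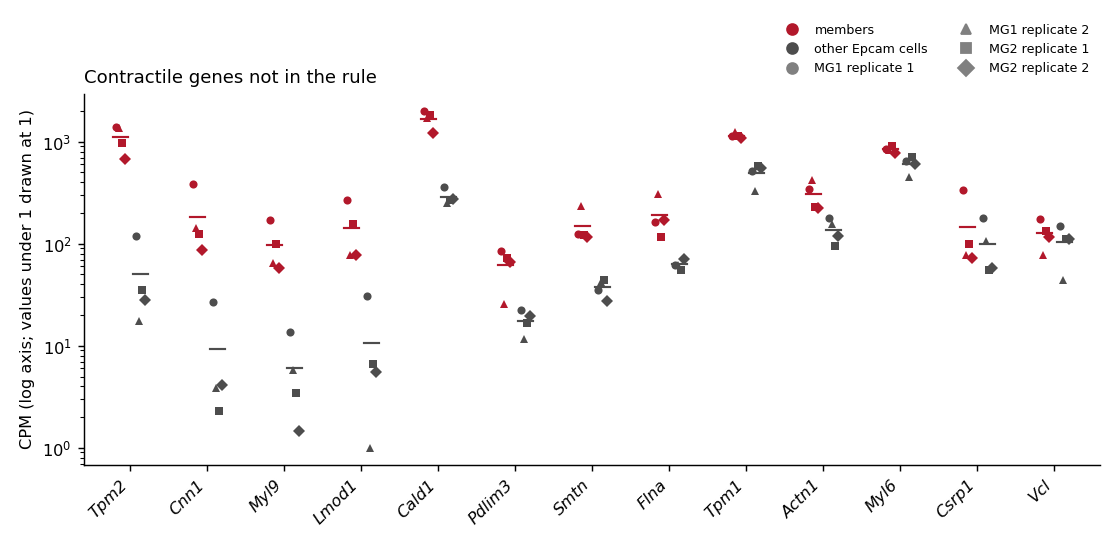
Levels of the 13 tested contractile genes outside the rule (CPM, log axis), with 1 point per gland library for members and for comparison cells. The members lay above the comparison cells without overlap for 11 genes, and the sets overlapped for Csrp1 and Vcl.

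Many smooth-muscle genes carry a CArG box, the site bound by serum response factor, near their start. The RefSeq windows of GRCm38.p6 (250 bases before to 50 after the start, 300 in all) were searched for it on both strands, since most contractile genes were higher together. A box was found in 3 of 15 listed contractile genes with a window (20%), against 488 of 27025 genes (1.81%). With the contractile rule genes included it was 3 of 17 (17.6%). A gene counted when any of its windows held a box, and Myl6 had one in 1 of its 2 windows. The 3 genes were Myl9, Vcl and Myl6, and the stretches of the first pair are shown with the box in capitals, because one gene was higher in members and the other did not pass. They were chosen after their values were seen. The Myl9 box lay 161 to 152 bases upstream of the start (chr2:156775283-156775332, plus strand) and the Vcl box 227 to 218 bases upstream (chr14:20929151-20929200, plus strand).
Myl9: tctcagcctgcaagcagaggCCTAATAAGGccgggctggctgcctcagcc
Vcl: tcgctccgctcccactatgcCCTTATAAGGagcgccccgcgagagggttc
The windows of Acta2, Mylk, Cnn1, Tpm2 and Lmod1 held none in these 300 bases, and the windows of Actg2, Myh11 and Tagln were not used here. A match describes the letters and does not show binding.

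Receptors and kinases that control contraction were mostly too sparse to test. The counts allowed a test of 4 among 12 listed genes. Of these 0 were higher and 1, the vasoconstrictor peptide gene Edn1, was lower (log2 fold change -1.19, SE 0.37, adjusted p 0.0439), a call lost without either MG2 library. Edn1 was highest in the secretory cells, with 130, 88.4, 87.7 and 80.1 CPM there, and 76.3, 0, 9.90 and 35.5 CPM in members. The oxytocin receptor Oxtr, which triggers milk ejection, had 11 UMIs in members and 7 in the far larger comparison sums. That is 4.77, 12.9, 4.95 and 9.69 CPM against 0.429, 0, 1.72 and 0 CPM, without overlap but at a depth the test excluded.

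Basement membrane genes formed another group with mostly higher members: 8 of 13 tested genes were higher, 1 was lower and the median log2 fold change was 0.89. Without MG2 replicate 1, 5 were higher and 0 were lower. Col17a1, the transmembrane collagen of hemidesmosomes (chromosome 19, 47646344 to 47692094), had 119, 103, 77.6 and 72.6 CPM in members and 2.92 to 5.15 CPM in comparison cells. These sums lay far apart, and the log2 fold change was 4.46 (SE 0.29, adjusted p 1.87e-07). Lama3, the alpha chain of laminin-332, was higher by 3.24 (SE 0.27, adjusted p 2.14e-06), and its partner Lamb3 by 1.64 (SE 0.22, adjusted p 0.000143). The matricellular gene Sparc was 1.98 higher (377 ± 70.7 against 103 ± 63.7 CPM). The type IV collagen genes Col4a1 (1.28) and Col4a2 (1.73) and the laminin chains Lamb1 (0.85) and Lamc1 (0.89) were also higher, with overlap of the sums for all of these except Col4a1. The fibroblast markers, summed over the 4 libraries, had 859 CPM in members and 946 CPM in comparison cells, the endothelial markers 70.9 and 35.6 CPM and the pericyte markers 30.6 and 19.3 CPM. By library, fibroblast markers were lower in members only in MG2 replicate 1 (353 against 590 CPM). They were higher in MG1 replicate 1 (2254 against 1678), MG1 replicate 2 (2834 against 2461) and MG2 replicate 2 (570 against 474). Endothelial markers were higher in members only in the MG2 libraries. The part of these cell types in the basement membrane values was not tested. Lama5, the alpha chain of laminin-511, went the other way, at 33.5 ± 15.3 CPM in members and 81.2 ± 35.2 CPM in comparison cells (log2 fold change -1.02, SE 0.27, adjusted p 0.0202).

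Of 12 tested integrin and hemidesmosome genes 3 were higher and 1 was lower, with a median log2 fold change of 0.13. The higher genes were the laminin receptor subunit Itga3 (1.51), the cytolinker Dst (0.88) and the hyaluronan receptor Cd44 (1.00). Itgb6 was lower (-1.40, adjusted p 0.00125) and was highest in hormone-sensing cells. The integrin subunits by which basal cells are often sorted did not pass: Itgb1 had 819 ± 220 CPM in members and 709 ± 146 CPM in comparison cells (log2 fold change 0.21, SE 0.13, adjusted p 0.324). Itga6 had 328 ± 40.1 against 257 ± 31.9 CPM (0.34, SE 0.14, adjusted p 0.137) and Itgb4 was close to 0 (-0.01, SE 0.29). In the 129 members that met the rule at 1000 UMIs Itga6 passed (0.76, adjusted p 0.0184), so its call depended on which members were taken.

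Adhesion genes of basal and stratified epithelium were higher in 5 of 7 tested cases. P-cadherin (Cdh3), the cadherin of the basal layer, had 23.8, 38.8, 52.8 and 45.2 CPM in members and 1.94 to 2.57 CPM in comparison cells (log2 fold change 4.24, SE 0.41, adjusted p 7.35e-06). Plakophilin Pkp1 was 2.80 higher and the membrane peptidase Mme, also known as CD10 and a myoepithelial surface marker, 2.48 higher. Desmoplakin (Dsp, 0.99) and Perp (0.89) of desmosomes were moderately higher, but against hormone-sensing cells alone Dsp did not pass (0.29, SE 0.18, adjusted p 0.233). The call of Perp was lost without either MG2 library. The desmosomal cadherin Dsg2 was lower (-0.84, SE 0.16, adjusted p 0.00228).

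Among transcription factors of the basal layer, 4 of 9 tested genes were higher and 0 were lower. Snai2, a zinc-finger factor of basal and mesenchymal cells (chromosome 16, 14705852 to 14709385), had 76.3, 77.5, 99.0 and 92.0 CPM in members and 8.58, 1.94, 5.15 and 5.85 CPM in comparison cells (log2 fold change 3.91, SE 0.31, adjusted p 9.94e-07). Its 4 member sums were close together and well above the comparison sums. Id4, an inhibitor of basic helix-loop-helix factors, was 3.54 higher (SE 0.40, adjusted p 3.68e-05), but spread from 123 CPM in MG2 replicate 2 to 555 CPM in MG1 replicate 2. Egr2 was 2.96 higher and the Hippo pathway coactivator Yap1 0.95 higher (adjusted p 0.0115). The call of Yap1 was lost without MG1 replicate 1 and without MG2 replicate 1. Trp63, the p63 gene that maintains the basal layer, was too sparse for the test with 20 UMIs in members and 16 in comparison cells. Its level was 13.3 ± 0.661 CPM in members and 1.36 ± 1.15 CPM in comparison cells (n = 4 each), without overlap.

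The tested Notch ligands, Dll1 and Jag1, were higher in members than in comparison cells. Dll1 was deep enough for the test only in its member sums, so its being tested and its being higher are linked. The tested receptors did not pass. Of the other listed ligands, Jag2 had 13 UMIs in members and 9 in comparison cells, and Dll3 had 0 in both. Dll1 (chromosome 17, 15367354 to 15376872) had 81.1, 77.5, 84.2 and 71.0 CPM in members and 7.72, 1.94, 4.29 and 6.43 CPM in comparison cells. Its log2 fold change was 3.79 (SE 0.32, adjusted p 1.85e-06). Jag1 had 134, 400, 261 and 242 CPM in members and 29.2 to 50.4 CPM in comparison cells (2.81, SE 0.22, adjusted p 1.01e-06). Both ligands were higher than in secretory cells alone (4.04 and 3.39) and than in hormone-sensing cells alone (4.30 and 2.43). The receptor Notch1 had 40.2 ± 26.8 CPM in members and 39.6 ± 15.4 CPM in comparison cells (0.09, SE 0.26, adjusted p 0.871). The Notch target Hes1 was slightly lower in members (-0.58, SE 0.18, adjusted p 0.0485), a call lost without either MG2 library or without MG1 replicate 1. It was also lost with sums per mouse and in members with fewer than 2 UMIs on each luminal marker list.

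Regulators of Wnt signaling included the gene with the highest fold change of the named genes. Wif1, a secreted inhibitor that binds Wnt proteins (chromosome 10, 121033960 to 121100650), had 19.1, 103, 87.5 and 54.9 CPM in members. In comparison cells it had 3.43, 0, 1.43 and 1.75 CPM, with 99 against 19 UMIs in all and a log2 fold change of 4.89 (SE 0.50, adjusted p 1.36e-05). Of 5 tested genes of the Wnt and stem cell list 3 were higher: Sfrp1, another secreted Wnt inhibitor (1.94), Wnt11 (1.87) and the surface receptor Procr (0.98). Without MG2 replicate 1 the number was 1, and without MG1 replicate 2 it was 6 of 11 tested. Wnt11 was called in the 129 members, but not without MG1 replicate 1, without the deepest 5% of cells or with sums per mouse. Wnt5b was lower (-1.24), a call lost without MG2 replicate 1 and with sums per mouse, and was highest in secretory cells, at 53.5 to 67.7 CPM. Procr, also expressed by stromal and endothelial cells, was at -0.56 in members without any UMI of stromal markers and at -0.11 in the 129 members that met the rule at 1000 UMIs. Another 12 listed genes, among them Lgr5, Lgr6, Axin2 and Wnt10a, were too sparse to test.

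Secreted factors were prominent: 6 of 13 tested growth factors, cytokines and binders were higher and 0 were lower. The chemokine Cxcl14 (chromosome 13, 56288643 to 56296551) had 1144, 2183, 1484 and 1319 CPM in members and 146, 67.8, 62.3 and 79.2 CPM in comparison cells. That was a log2 fold change of 4.09 (SE 0.25, adjusted p 1.09e-07), and 92.1% of members had a UMI against 12.0% of comparison cells. Igfbp3, which binds insulin-like growth factors, was 3.27 higher (SE 0.24, adjusted p 5.33e-07) but ranged from 153 CPM in MG1 replicate 1 to 1602 CPM in MG1 replicate 2. Its comparison cells were also highest in MG1 replicate 2, at 266 CPM. The lipid carrier Apoe (2.69), the matricellular growth factor Ctgf (1.93), the macrophage factor Csf1 (1.31) and the angiogenic factor Vegfa (1.24) were higher without overlap.

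Apoe reached 971 ± 166 CPM in members and 168 ± 82.9 CPM in comparison cells and was found in 86.4% and 22.2% of the cells. Vegfa reached 600 ± 240 against 238 ± 41.1 CPM. The insulin-like growth factor binder Igfbp5 was abundant in both groups and did not pass (932 ± 169 against 835 ± 319 CPM, log2 fold change 0.22, adjusted p 0.418).

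Outside the lists, the genes with the highest fold changes included secreted and membrane proteins. Follistatin (Fst), which binds and inhibits activin (chromosome 13, 114452290 to 114458951), was among the most abundant, with 1364, 1447, 2652 and 2165 CPM in members. Comparison cells had 205, 38.8, 128 and 127 CPM, and the log2 fold change was 3.98 (SE 0.28, adjusted p 3.11e-07). Npy, the gene of neuropeptide Y, was 4.38 higher (SE 0.22, adjusted p 1.56e-08). Its members had 90.6, 1447, 172 and 131 CPM, so that MG1 replicate 2, with 13 members, stood far above the other libraries, and its comparison cells were highest there too (77.5 CPM). The teneurin Tenm2 (3.90), the calcium channel subunit Cacna2d1 (3.85) and 1500015O10Rik (4.01) completed the 15 named genes with the highest fold changes. All 15 were without overlap, which their choice by fold and direction nearly fixes. The mean of hormone-sensing cells was above that of secretory cells in 0 of the 15, in 20.1% of all 616 genes called higher and in 48.5% of all tested genes.

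Growth factor receptors were higher in 4 of 10 tested cases and lower in 0. The TGF-beta coreceptor Tgfbr3 differed most (2.38, SE 0.25, adjusted p 1.48e-05), with 105, 258, 152 and 118 CPM in members and 16.1 to 60.1 CPM in comparison cells. Fgfr1 (1.09), Egfr (0.88) and the oncostatin M receptor Osmr (0.82) were also higher, and without MG2 replicate 1 the number higher was 2. For the hepatocyte growth factor receptor Met and for Fgfr2 the value depended on the luminal type compared. Met was lower in members than in secretory cells (-0.93, adjusted p 0.0049) and higher than in hormone-sensing cells (1.60, adjusted p 0.0030), and Fgfr2 was the reverse (0.97 and -1.23).

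**Figure D4:**
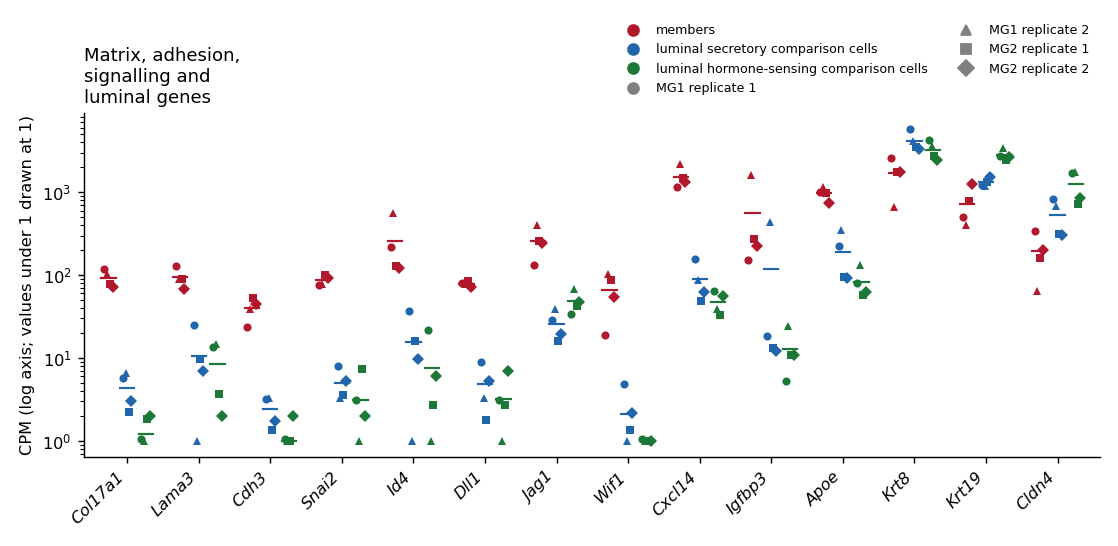
Levels of 14 genes (CPM, log axis, values under 1 drawn at 1) in members, luminal secretory and luminal hormone-sensing comparison cells, with 1 point per gland library. Col17a1, Lama3, Cdh3, Snai2, Id4, Dll1, Jag1, Wif1, Cxcl14 and Apoe lay highest in members in each library, and Krt8, Krt19 and Cldn4 lay lowest in members.

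Simple epithelial keratins were lower in members in all 4 tested cases. Krt8 had 2561, 672, 1771 and 1732 CPM in members and 4867, 3869, 3130 and 2977 CPM in comparison cells (log2 fold change -1.17, SE 0.21, adjusted p 0.00177). Krt18 (-1.06), Krt19 (-1.35) and Krt7 (-1.36) were lower by similar amounts without overlap. In the 129 members that met the rule at 1000 UMIs the differences were larger, with -1.89 for Krt8, -2.56 for Krt18, -3.79 for Krt7 and -4.10 for Krt19, and a list median of -3.17 in place of -1.26. In members with fewer than 2 UMIs on each of the secretory and hormone-sensing marker lists the median was -3.91. With all members, those holding luminal RNA included, thinned to 1000 UMIs, 55.8% had a Krt8 UMI and 22.7% a Krt19 UMI, against 82.9% and 63.8% of comparison cells.

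Keratins of stratified epithelium outside the rule gave 1 higher gene, Krt16 (2.08, SE 0.43, adjusted p 0.0046; 65 UMIs in members and 101 in comparison cells), and 1 lower, Krt6a, of 3 tested. The call of Krt16 was lost without MG2 replicate 1. In the 129 members Krt16 was not tested and Krt15 was higher (1.37, adjusted p 0.0129), which it was not over all members (0.25, adjusted p 0.773). Krt16 and other type I keratins of this gene cluster are similar in sequence, and how shared reads were divided is not given in the sources used here.

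Tight junction and luminal polarity genes were lower in 6 of 9 tested cases and higher in 0. Claudin Cldn4 had 343, 64.6, 162 and 203 CPM in members and 427 to 1158 CPM in comparison cells (-1.71, SE 0.25, adjusted p 0.000304). Cldn7 (-1.34) and Cldn3 (-1.0) were also lower. The median of the list was -1.13, and -2.79 in the 129 members.

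Milk and secretory genes were lower in 8 of 16 tested cases and higher in 0, with a median of -0.80. The number lower was 5 without MG2 replicate 1 and 13 without MG2 replicate 2. The beta-casein gene Csn2 had 71.5, 439, 1566 and 2267 CPM in members and 617, 5131, 3098 and 2673 CPM in comparison cells (-1.64, SE 0.39, adjusted p 0.0108). Members were below comparison cells within each library, most in MG1. With the 129 members, 14 of 16 were lower, the median was -3.33 and Csn2 was at -4.51. Against hormone-sensing cells alone the sign turned for all 8 genes: Csn2 (3.51), Csn1s2a (3.19), Spp1 (2.63), Plin2 (1.99), Mfge8 (1.27), Glycam1 (0.44), Csn1s1 (3.09) and Wfdc18 (3.16). Csn1s1 and Wfdc18 were among the markers used to split the luminal types. Hormone-sensing cells were chosen to have fewer secretory than hormone-sensing marker UMIs. These values use all members, and the 33 deepest held 77.1% of the members' secretory-marker UMIs. The 129 members were not compared with hormone-sensing cells alone.

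Hormone-response genes were lower in 6 of 10 tested cases and higher in 0, but in 2 without MG2 replicate 1. The median was -1.30, and in the 129 members 5 of 9 were lower with a median of -1.98. The prolactin receptor Prlr had 543 ± 430 CPM in members and 1573 ± 449 CPM in comparison cells (-1.64, SE 0.26, adjusted p 0.000541), and the progesterone receptor Pgr 35.8 ± 18.6 against 113 ± 40.4 CPM (-1.64, adjusted p 0.000188). Both genes were among the markers that split the comparison cells, so secretory cells were chosen to be low in them, and values against either luminal type alone are a description (0.09 and 0.32 against secretory cells). Among luminal transcription factors Foxa1 (-1.32), Ehf (-1.03) and Elf3 (-0.82) were lower, which none of these was without MG2 replicate 1, and Cebpb was higher (0.94, adjusted p 0.000471), at 804 ± 151 against 416 ± 124 CPM. The median of the 9 tested factors was -0.51, and in the 129 members 4 of 8 were lower, 1 was higher and the median was -1.80.

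Among the 15 named genes with the lowest fold changes, the mean of hormone-sensing cells exceeded that of secretory cells in 11. The share was 73.3% over all 341 genes called lower and 48.5% over all tested genes. Ctsr, a cathepsin gene, had 14.3, 12.9, 0 and 6.46 CPM in members and 486, 40.7, 18.6 and 51.7 CPM in comparison cells (-4.12, SE 0.43, adjusted p 1.59e-05). Hormone-sensing cells of MG1 replicate 1 had 1139 CPM of it. The alarmin Il33 (-2.34), the uroplakin gene Upk3a (-2.24), the amino acid transporter Slc38a1 (-2.23), Spef2 (-2.56), Egflam (-2.30), Tnip3 (-2.20), Tuba8 (-1.95) and fibrinogen Fgb (-1.92) likewise had higher means in hormone-sensing than in secretory cells, as had Krt6a (-2.69). In the 129 members Upk3a was at -5.16, Fgb at -4.18, Slc38a1 at -4.05, Krt6a at -3.19 and Il33 at -3.10. Aldh1a3, an enzyme of retinoic acid synthesis used here as a secretory marker, was at -2.96 with 8 UMIs in members and 425 in comparison cells. Nfe2l3 was at -2.23 and the antibody chain gene Igkc at -2.64. Igkc was concentrated in MG1 replicate 2 in members (400 CPM) and in comparison cells (3121 CPM), and its groups overlapped across libraries, as did those of Krt6a and Fgb.

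**Figure D5:**
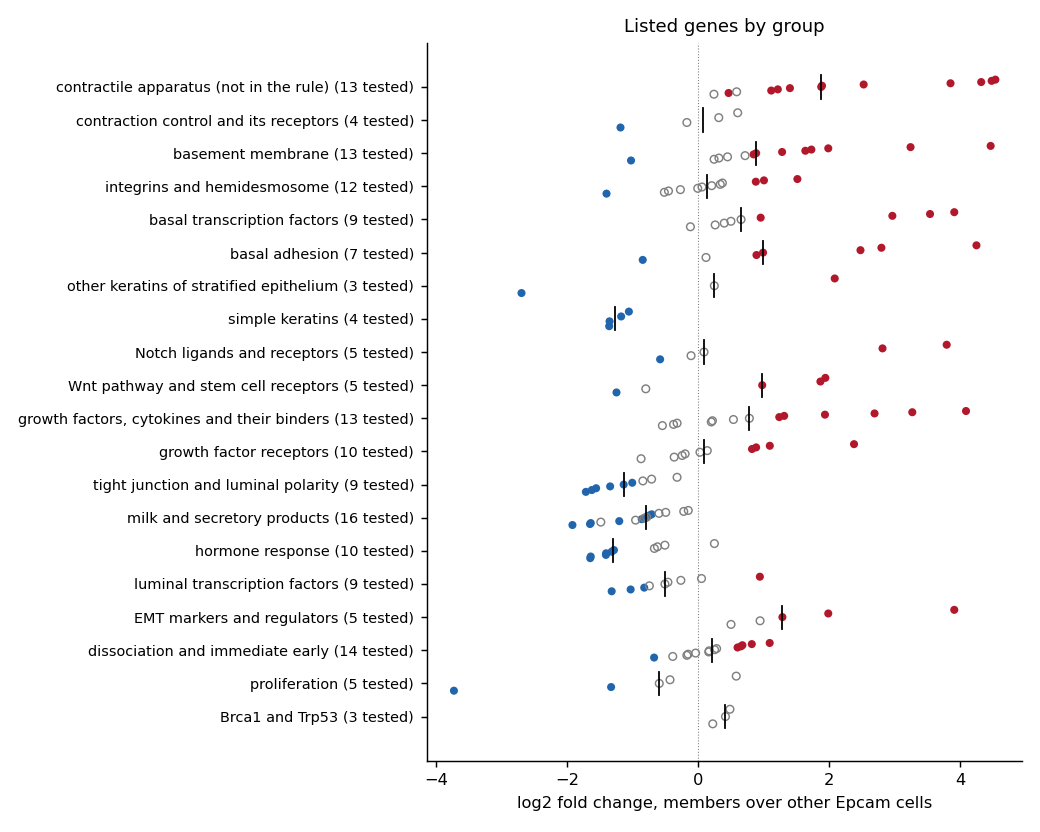
Log2 fold change of members over comparison cells (horizontal axis) for each tested gene of the listed groups (vertical axis), with filled points for genes that passed an adjusted p of 0.05 (red higher, blue lower), open grey points for the others and a bar at each median. Contractile genes had a median of 1.88, basement membrane genes 0.89 and simple keratins -1.26.

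Of the genes linked to epithelial-mesenchymal transition, 3 of 5 tested were higher: Vim (1.29), Snai2 and Sparc. Vim, the intermediate filament of mesenchymal and basal cells, had 739, 723, 484 and 426 CPM in members and 317, 554, 108 and 188 CPM in comparison cells, which overlapped through MG1 replicate 2. Twist1, Zeb2, Snai1 and Cdh2 were too sparse to test. Of 14 tested genes induced by tissue dissociation 5 were higher and 1 was lower, against 9.31% and 5.16% of all tested genes. Egr1 (1.09), Ier2, Ier3, Dusp1 and Hsp90aa1 were higher, Jund was lower (-0.67) and Fos was at 0.16 (adjusted p 0.451). The number higher was 3 without either MG2 library.

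Of 5 tested proliferation genes 2 were lower in members and 0 were higher. The cycling marker Mki67 had 3 UMIs in members, all in MG2 replicate 2, and 256 in comparison cells. Its pooled level was 1.92 against 25.6 CPM, a ratio of 13.4 in favor of the comparison cells (exact counting interval 4.52 to 65.2). The interval covers counting error only and treats UMIs of the same cell as independent. Mki67 (adjusted p 0.000969 from edgeR) was deep enough for the test only in the comparison sums. Top2a was lower in summed level (-1.33, SE 0.40, adjusted p 0.0373), a call lost without MG1 replicate 1, without either MG2 library and with sums per mouse. More members than comparison cells had a Top2a UMI (5.15% against 2.80%, and 1.82% against 1.42% at 1000 UMIs). At 1000 UMIs 0.606% of members and 1.30% of comparison cells had an Mki67 UMI. The other 3 tested genes did not pass, among them Pcna (0.58, adjusted p 0.0808), which was found in 36.4% of members and 25.2% of comparison cells and passed as higher without MG1 replicate 1 and without the deepest 5% of cells.

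Brca1 itself, the floxed gene, was too sparse for any comparison. It had 0, 0, 0 and 2 UMIs in the 4 member sums and 0, 0, 8 and 8 UMIs in the comparison sums. Trp53 had 67.7 ± 22.9 CPM in members and 49.5 ± 7.49 CPM in comparison cells (0.22, SE 0.26, adjusted p 0.630).

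The members of the 2 mice were compared directly, with 2 libraries each. Of 5653 tested genes, 5 passed (0.0884%), while 639 had an unadjusted p under 0.05. Dpt, Igfbp6, Lgals7 and mt-Tc were higher in MG1, and the ribosomal pseudogene Rps13-ps1 was lower. With other size factors (RLE) 0 passed and 626 had an unadjusted p under 0.05, and DESeq2 called 71, so the number of calls depended on the method. Leaving out 1 library also moved it, to 638 (MG1 replicate 1), 502 (MG1 replicate 2), 56 (MG2 replicate 1) and 53 (MG2 replicate 2). Each of these fits has 1 library in one mouse, which is assumed to vary like the other mouse's 2 libraries. Dpt, a dermatopontin gene used here as a fibroblast marker, had 90, 60, 2 and 4 UMIs in members and 413, 294, 44 and 59 in comparison cells. That was 429, 775, 3.30 and 6.46 CPM against 177, 570, 12.6 and 17.2 CPM. A difference in the same direction was thus present outside the members. The interaction, MG1 change minus MG2 change, was 2.48 (SE 0.59) and did not pass (edgeR adjusted p 0.119). Rps13-ps1 had 0, 0, 226 and 216 UMIs in members, at least 38.1-fold higher in MG2 against a floor of 3 UMIs over the MG1 members (exact lower bound 30.9-fold), and 4, 7, 1058 and 954 in comparison cells. Reads of such a pseudogene can come from its parent gene, and how the counting divided them is not given in the sources used here.

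Whether the change between members and comparison cells itself differed between mice was tested as an interaction. It did so for 20 of 6613 genes (0.302%), and 461 had an unadjusted p under 0.05. The number was 246 without MG1 replicate 1, 91 without MG1 replicate 2 and 12 without MG2 replicate 2. In the contractile list 0 of 13 genes passed, and the difference between mice ran from -1.36 (Myl9, adjusted p 0.669) to 0.55 (Flna, adjusted p 0.861). Simulated data, with changes only in genes of at least 100 UMIs, recovered 52% of interactions of 2 on the log2 scale and 12% of those of 1. Smaller differences would thus mostly have been missed, and recovery for sparser genes was not simulated.

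Cells that met the same rule were rare in the tumors of these mice. In the tumor of mouse 1 (MT1) 10 of 7690 cells met it (0.130%, 0.0624% to 0.239%), and in that of mouse 2 (MT2) 0 of 10314 cells, which allows a share of up to 0.0291% by the limit of 3 counts (exact upper bound 0.0358%). The 10 cells came from 3 of the 5 MT1 libraries, with 4, 4 and 2 cells, and 3 of them met the stricter rule. They had 1500 to 8641 UMIs, 3 to 21 keratin UMIs and 2 to 16 contractile UMIs. A share of captured cells does not give the number of myoepithelial cells in the tissue.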

How the data were processed

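The deposited values were raw UMI counts per gene and cell (21743 genes, 21157 cells). The authors made them with the Drop-seq tools and STAR on GRCm38.p6 (the submitters' processing notes) and kept cells that passed limits on gene number and mitochondrial reads. Whether counting used strand is not given in the sources used here. Members, lists and tests were chosen with earlier results of these data known. The study's own test over cells was replaced by sums per library, since cells are not replicates.

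Sums were made with python 3.11.15. The test was the quasi-likelihood F test of edgeR 4.0.16 (R 4.3.3) with filterByExpr, TMM factors and a library block. Standard errors were the absolute log2 fold change over the square root of F. Comparison cells were split by marker lists into 1478 secretory, 936 hormone-sensing and 122 neither. The block rests on both sums coming from 1 library of 1 animal, and their deviations correlated at 0.453 to 0.548; sums of different MG2 libraries correlated at 0.462 and 0.478. Named genes were the 15 highest and 15 lowest called genes with at least 100 UMIs and the same direction in 4 libraries, the 5 highest and 5 lowest of each comparison between mice, and the listed genes. One named gene is not reported here. Of 252 listed genes 246 were in the table; Areg, Myocd, Mrtfa and Krt1 were among the 6 not analysed here, as were Cd3e, Adipoq, Plin1 and Cfd of the marker lists. Simulated data covered 6621 genes, with changes placed only in genes of at least 100 UMIs, 100 genes for each size. There the comparison of members with comparison cells recovered 92% of changes of 2 on the log2 scale and 58% of changes of 1. Recovery for sparser genes was not simulated. Alternatives were DESeq2 1.42.0, RLE factors, no filter, no block, sums per mouse, other cell sets and each library left out. Thinning to 1000 UMIs used 1 random draw, and intervals are at 95%.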

Additional observations from a re-analysis of the deposited data

Results flagged for a closer look

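For 9 named genes the change between members and comparison cells differed between the mice by the edgeR interaction test, with values given as MG1 change minus MG2 change on the log2 scale and UMIs of members in MG1 replicates 1 and 2 and MG2 replicates 1 and 2. Each mouse is 1 animal. The chemokine gene Cxcl13 was at 6.04 (SE 0.96, adjusted p 0.00986; 34, 254, 0 and 1 UMIs). Prg4, the lubricin gene, was at 5.16 (SE 0.60, adjusted p 0.000558, with 7, 57, 4 and 7 UMIs). The fibroblast markers summed to 2254, 2834, 353 and 570 CPM in the same member sums and to 1678, 2461, 590 and 474 CPM in comparison cells. Their part in the values of Cxcl13 and Prg4 was not tested. Il23a was at 2.97 (adjusted p 0.0463; 30, 6, 21 and 6 UMIs) and Sox10, a factor of nerve sheath and mammary epithelial cells, at 2.57 (adjusted p 0.0423; 27, 7, 18 and 37 UMIs).

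Apold1 was at -5.00 (adjusted p 0.0423; 0, 1, 39 and 30 UMIs) and the fatty acid carrier gene Fabp4 at -3.84 (adjusted p 0.00201; 5, 8, 108 and 93 UMIs). The 6 endothelial markers had 1, 1, 49 and 60 UMIs in the same member sums, and their part in these values was not tested. The milk genes Ltf (-3.11, adjusted p 0.0036; 8, 4, 258 and 464 UMIs) and Csn2 (-2.77, adjusted p 0.000183; 15, 34, 949 and 1404 UMIs) were also lower in the MG1 contrast, and most luminal secretory UMIs of members lay in the deepest cells. Krt15 was at -3.09 (adjusted p 0.00177): it had 13, 9, 39 and 52 UMIs in members and 469, 153, 88 and 88 in comparison cells, so the mice differed mainly in the comparison cells.

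The tumor libraries entered no comparison, and 10 cells of MT1 met the member rule against 0 in MT2.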

How the results depend on the processing

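Of 110 named or listed genes called in the main comparison, DESeq2 kept 103, RLE factors 110, sums per mouse 96 and the 129 members that met the rule at 1000 UMIs 93 of 96 tested. The pairing of sums by library mattered: with no replicate block 257 genes passed and 51 of the 110 were kept. Against hormone-sensing cells alone 2129 genes passed, and leaving out 1 library gave 371 to 1421. The median of all genes moved to -0.35 in members with fewer than 2 UMIs on each luminal marker list. It moved to -0.22 in members without stromal UMIs. Sets of members at 1000 UMIs, with Epcam or without stromal UMIs, and thinning, were chosen after seeing the data.

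The interaction between mice passed in 20 genes, and in 13 (RLE), 4 (DESeq2), 74 (no filter), 0 (stricter rule; 435 at an unadjusted p under 0.05 by edgeR), 6 (without the deepest 5% of cells), 150 (members without luminal UMIs), 35 (members at 1000 UMIs), 6 (members with Epcam) and 12 to 246 (1 library left out). The direct comparison of MG1 and MG2 members passed in 5 genes, and in 0 (RLE), 71 (DESeq2), 0 (no filter; 940 at an unadjusted p under 0.05), 2 (stricter rule), 108 (members without luminal UMIs), 15 (thinned), 2 (members at 1000 UMIs), 2 (members with Epcam) and 53 to 638 (1 library left out).

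Among genes that did not split the luminal types and passed in at least 1 of the fits compared, signs turned against hormone-sensing cells for Edn1 (0.25), Igfbp4 (1.76), Met (1.60), Csn1s2a (3.19), Csn2 (3.51), Glycam1 (0.44), Ltf (2.76), Lcn2 (2.74), Mfge8 (1.27), Xdh (2.58), Spp1 (2.63) and Plin2 (1.99), and against secretory cells for Fgfr2 (0.97) and Calca (0.31). Procr was at -0.40 against all other gland cells, -0.11 with members at 1000 UMIs and -0.56 without stromal UMIs. The cause was not tested. In MG1 replicate 2, 0 members had fewer than 2 UMIs on each luminal marker list, and that library had only 13 members.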
